A study of Lithobates pipiens with 72 samples.

Results

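The comparison described here is that of leopard frog (Rana pipiens) tadpoles held in water with 3.4 mg/L TNT (trinitrotoluene, a nitroaromatic explosive) against tadpoles held in clean water. It takes 8 of the 72 RNA sequencing libraries of the series, 4 at 3.4 mg/L and 4 of the control made alongside them, chosen by the group that the labels give. At 3.4 mg/L, the highest TNT level for which libraries were analysed here, tadpoles lived for 96 h in vessels whose walls had been coated with TNT from acetone that was left to evaporate before water was added. Control tadpoles spent the same 96 h in dechlorinated tap water without TNT. In both groups the animals started at 7 to 10 d of age, and each library is RNA from the whole bodies of 5 tadpoles pooled from 1 beaker of 10. Libraries carry the letters A to D in each group. The same study also exposed tadpoles to 2.3 and 1.5 mg/L TNT, with 4 libraries each, and these entered the statistical model and the comparison across doses. All doses are the study's target levels as its sample labels give them, and a higher TNT target that its design names was not analysed here.

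The toxicity of TNT in vertebrates starts from its nitro groups, which cellular reductases convert stepwise to amines at the expense of NADPH. Intermediates of that reduction can pass electrons to oxygen, so TNT is known as an oxidant of red cells and as a poison of the liver. Cells meet reactive compounds with the KEAP1-NRF2 system, in which KEAP1 holds the transcription factor NRF2 at a low level until its cysteines are modified. NRF2 with a small MAF partner then switches on genes for glutathione, NADPH, reductases, conjugating enzymes and efflux pumps.

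The values were estimated counts for 19128 transcripts, each named by its closest Xenopus protein. Levels are given as CPM, the usual count of reads scaled to a common library total, and are not corrected for transcript length, so they are compared between libraries and not between genes. Library totals ran from 8956410 to 13636200 counts (rounded) at 3.4 mg/L. Control A held 1674620 and came from a single sequencing run, while the other controls held 8960770 to 10904300 from 2 runs each. On log2 CPM, libraries at 3.4 mg/L correlated with each other at 0.90 to 0.91, controls B to D with each other at 0.899 or more, and control A with the other controls at no more than 0.834. Summed markers of liver, red cells, gut, pancreas, skin, muscle, nerve and connective tissue were detected in each of the 8 libraries. In every list but that of the pancreas, some transcripts had no counts in any of the 8. In bulk RNA of whole animals, fewer cells of a type and less RNA per cell cannot be told apart.

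Of 12648 transcripts tested, 1516 were called different at 3.4 mg/L (12.0% of those tested, Benjamini-Hochberg adjusted p under 0.05 in the quasi-likelihood test of edgeR). Of these, 806 rose (6.37%) and 710 fell (5.61%), which are the shares against which the counts of gene groups below can be read. Most changes were moderate. The median log2 fold change was 0.66 among transcripts that rose and -0.72 among those that fell, against 0.06 over all tested, and fold changes below are given as log2 ± standard error. A change of more than 2 on the log2 scale was found in 79 transcripts that rose and 72 that fell. In 2269 transcripts (17.9%) the 4 libraries at 3.4 mg/L all lay above or all lay below the 4 controls, and 1402 of these were also called. As a share of the scaled library total used for CPM (TMM scaling of edgeR), the transcripts that rose made up 17.6 to 19.1% at 3.4 mg/L and 9.91 to 10.7% in the controls. Those that fell made up 17.5 to 21.7% at 3.4 mg/L and 29.8 to 33.3% in the controls. Both sets were called from these same libraries, so the direction of these differences in share is not a separate result. Libraries of both groups shared sequencing lanes 3 and 4, but unevenly. Lane 3 held exposed A and B and control C, and lane 4 held exposed D and controls A, B and D. Exposed C was on lane 5, which held no control. With the lane as a term 1184 transcripts were called, of which 1160 were among the 1516. The balance of directions was not stable, and falls outnumbered rises in 14 of 19 alternative fits, as without control A, when 625 rose and 760 fell.

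**Figure D1:**
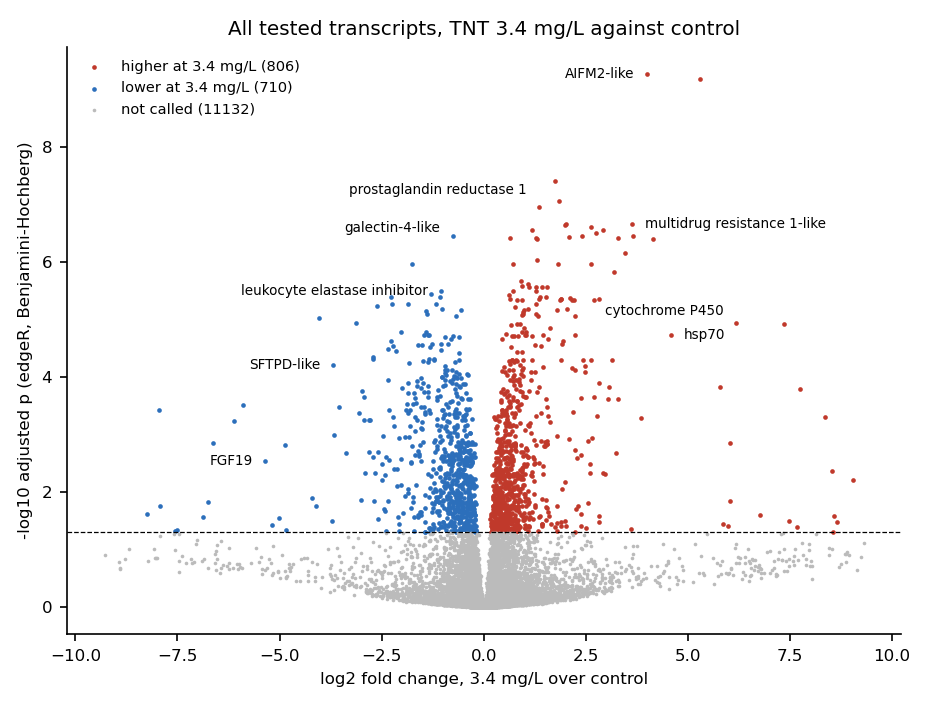
Each point is 1 of 12648 transcripts. The x axis is the log2 fold change of 3.4 mg/L over control and the y axis is -log10 of the adjusted p, with red for the 806 that rose, blue for the 710 that fell and grey for the rest. The dashed line marks an adjusted p of 0.05, and a few transcripts named in the text carry their names.

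Several genes of oxidant and electrophile defence rose. Apoptosis-inducing factor 2-like, an oxidoreductase of the AIFM2 type that in mammals regenerates reduced ubiquinone and is known as a suppressor of ferroptosis, had 775, 923, 894 and 865 CPM at 3.4 mg/L, against 50.5, 55.1, 60.2 and 50.7 CPM in the controls. The 2 groups lay far apart and each was tight, and the log2 fold change was 3.99 ± 0.13 (adjusted p = 5.4e-10). A second transcript named apoptosis-inducing factor 2 had 9.20, 27.04, 30.8 and 13.04 CPM at 3.4 mg/L, against 0, 0, 0 and 1.01 CPM in the controls, with counts in control D alone among the controls. It rose by 6.03 ± 1.05 (adjusted p = 0.0014). Pirin, an iron-binding nuclear protein known in human cells as an NRF2 target, had 1290.5, 2053, 2112 and 1804 CPM at 3.4 mg/L, against 154, 179, 229.8 and 185 CPM in the controls. Every exposed library lay above every control, and pirin rose by 3.28 ± 0.22 (adjusted p = 3.8e-07). A transcript named nmrA-like family domain-containing protein 1, an NADPH-sensing protein in human cells, had 345, 502, 552 and 456 CPM at 3.4 mg/L, against 42.4, 62.6, 77.1 and 59.7 CPM in the controls. It rose by 2.92 ± 0.18 (adjusted p = 2.8e-07), again with no overlap.

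The KEAP1-NRF2 list of regulators and reductases had 15 tested members, of which 5 rose, 1 fell and 9 did not pass, with a median log2 fold change of 1.39 against 0.06 over all transcripts. The DESeq2 Wald test called 8 higher. KEAP1, the inhibitor itself, had 400.1, 348, 417 and 401 CPM at 3.4 mg/L, against 45.8, 64.8, 118 and 99.3 CPM in the controls. Its control values varied more than 2-fold and all stayed below the exposed ones (log2 fold change 2.24 ± 0.23, adjusted p = 1.8e-05). MafG, a small MAF partner of NRF2, was scarce in both groups and had 8.07, 10.3, 11.5 and 9.27 CPM at 3.4 mg/L, against 1.74, 2.58, 2.17 and 2.13 CPM in the controls, with no overlap and a log2 fold change of 2.16 ± 0.26 (adjusted p = 7.1e-05). Among the reductases, prostaglandin reductase 1, which reduces double bonds of reactive aldehydes and ketones, had 343, 314, 278 and 321 CPM at 3.4 mg/L, against 132, 122, 112 and 126 CPM in the controls. The spread within each group was small and the change was 1.35 ± 0.07 (adjusted p = 1.1e-07). Carbonyl reductase 1-like, an NADPH-dependent reductase of quinones and carbonyls, varied more at 3.4 mg/L, with 132, 383, 304 and 214 CPM at 3.4 mg/L, against 48.7, 62.3, 14.9 and 39.5 CPM in the controls. The lowest exposed library was still above the highest control (log2 fold change 2.66 ± 0.45, adjusted p = 0.0012). Aldose reductase-like, which reduces aldehydes and sugars, averaged 301 ± 12.2 CPM at 3.4 mg/L and 157 ± 19.4 CPM in the controls (SD, n = 4 each) and rose by 0.93 ± 0.08 (adjusted p = 2.7e-06). The member that fell was an aldo-keto reductase named akr1c, with 19.4, 15.5, 14.2 and 17.6 CPM at 3.4 mg/L, against 33.1, 26.02, 24.2 and 32.3 CPM in the controls and a log2 fold change of -0.79 ± 0.15 (adjusted p = 0.0028). A related enzyme outside the list, 3-alpha-hydroxysteroid dehydrogenase, which acts on steroids and other carbonyls, went the other way. It had 1076, 1236, 1489 and 1184 CPM at 3.4 mg/L, against 206, 293, 339 and 332 CPM in the controls and rose by 2.09 ± 0.14 (adjusted p = 3.6e-07).

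Calls among glutathione and thiol repair genes went in both directions. The cystine/glutamate transporter, which brings in cystine for glutathione synthesis, had 33.6, 55.96, 57.2 and 50.2 CPM at 3.4 mg/L, against 2.90, 3.69, 4.12 and 4.49 CPM in the controls, and no exposed library came near the controls (log2 fold change 3.66 ± 0.24, adjusted p = 3.5e-07). It was the only one of 10 tested members of the glutathione list to rise, and 1 fell. These counts are near the shares over all transcripts, 6.37% higher and 5.61% lower. Glutathione peroxidase 3, the secreted peroxidase, had 340.4, 265, 346 and 304 CPM at 3.4 mg/L, against 409, 425, 475 and 443 CPM in the controls and fell by 0.48 ± 0.09 (adjusted p = 0.0031). Glutathione synthetase averaged 3.53 ± 0.911 CPM at 3.4 mg/L and 0.532 ± 0.700 CPM in the controls and did not pass (log2 fold change 2.56 ± 1.19, adjusted p = 0.22), with few counts in the controls. Glutaredoxin-1-like, which reduces mixed disulfides, had 12.3, 12.2, 11.04 and 11.4 CPM at 3.4 mg/L, against 4.06, 4.24, 5.64 and 5.05 CPM in the controls. Its groups did not overlap, yet its change of 1.29 ± 0.41 (adjusted p = 0.056) missed the threshold. It was called by the DESeq2 Wald test, with only the 8 libraries fitted, with the replicate block and with the deepest run. Without control B gamma-glutamyltransferase 6-like, which was chosen for mention after its values were seen, passed as a second rise of this list. Of 12 tested members of the list of other antioxidant enzymes, 3 rose and 1 fell. Besides both AIFM2 transcripts, sulfiredoxin-1-like, which restores overoxidised peroxiredoxins, rose. It had 67.4, 86.4, 99.5 and 81.3 CPM at 3.4 mg/L, against 26.7, 8.21, 12.9 and 14.8 CPM in the controls, with control A the highest control and still below every exposed library (log2 fold change 2.49 ± 0.30, adjusted p = 8.2e-05). Methionine sulfoxide reductase MsrA-like fell by 0.58 ± 0.15 (adjusted p = 0.016), with exposed library A inside the range of the controls, and its call was lost without exposed library B or C. Catalase-like appeared as 2 transcripts, of which the scarce one is not counted in the list. The scarce one fell, with 0.888 against 6.27 CPM, -2.82 ± 0.51 (adjusted p = 0.002), and the other had 3.94, 9.39, 20.1 and 25.3 CPM at 3.4 mg/L, against 0, 11.9, 0.434 and 0 CPM in the controls, a spread too wide to pass (adjusted p = 0.6). Summed by name the 2 had a log2 fold change of 0.67 that did not pass.

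Of 7 tested genes that supply NADPH, 3 rose and none fell. Cytoplasmic isocitrate dehydrogenase, an NADP-linked enzyme, had 437, 414, 429 and 390.0 CPM at 3.4 mg/L, against 151, 206, 230.3 and 192 CPM in the controls (log2 fold change 1.09 ± 0.10, adjusted p = 6.6e-06). NADP-dependent malic enzyme had 350.2, 354, 343 and 350.1 CPM at 3.4 mg/L, against 184, 217, 238 and 219.8 CPM in the controls, and the exposed libraries agreed within 4.41 CPM (SD). Its change was 0.70 ± 0.08 (adjusted p = 5.0e-05). The pentose phosphate enzyme Pgd rose by 1.99 ± 0.56 (adjusted p = 0.032), but exposed library A lay inside the control range and the call was lost when any of exposed libraries B, C and D or controls B and D was left out.

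**Figure D2:**
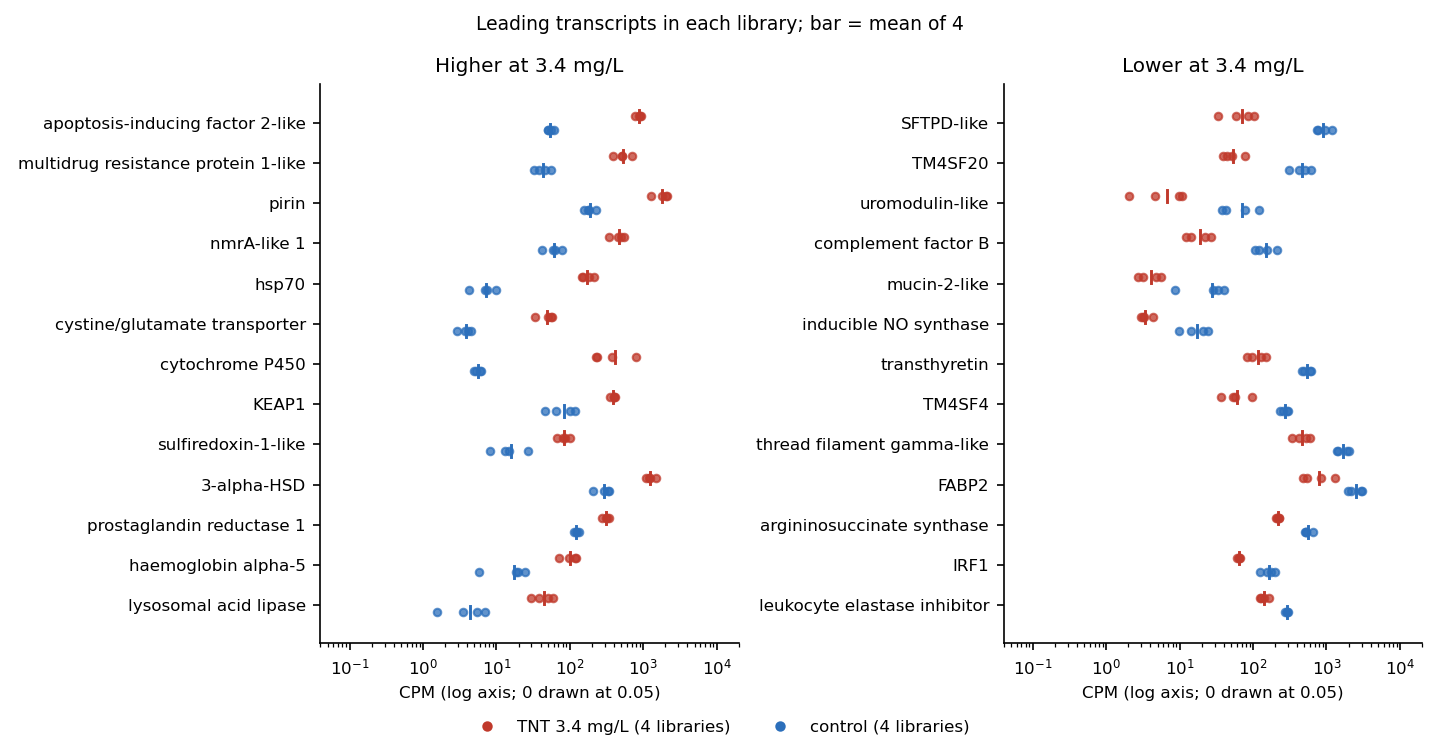
CPM in each library on a log axis for 13 transcripts that rose (left panel) and 13 that fell (right panel). Red points are the 4 libraries at 3.4 mg/L, blue points the 4 controls, and vertical bars the means. Red and blue points do not overlap in any of the 26 transcripts. Lack of overlap was part of the rule that picked leading genes, so it is not a separate result.

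Enzymes that modify foreign compounds changed in both directions. Of 42 tested cytochrome P450 and other phase I enzymes, 7 rose, 3 fell and 32 did not pass, and the median was 0.15 (0.09 without exposed library D). A transcript named only cytochrome P450 had 793, 236, 225 and 377 CPM at 3.4 mg/L, against 5.22, 4.89, 6.18 and 5.95 CPM in the controls. Exposed library A was more than 2-fold above the next one, and the whole exposed group was far above the controls (log2 fold change 6.18 ± 0.60, adjusted p = 1.1e-05). Cytochrome P450 3A29-like, of the CYP3A family that oxidises many drugs, had 1144, 1416, 1469.5 and 1364 CPM at 3.4 mg/L, against 381, 335, 425 and 369.8 CPM in the controls. The change was 1.84 ± 0.10 (adjusted p = 8.9e-08) with a small spread. Cytochrome P450 4B1-like had 1031, 782, 735 and 1030.5 CPM at 3.4 mg/L, against 199, 233, 229 and 240.0 CPM in the controls (log2 fold change 1.99 ± 0.12, adjusted p = 2.3e-07). CYP8B1, the sterol 12-alpha-hydroxylase of bile acid synthesis, rose by 0.87 ± 0.13 (adjusted p = 3.7e-04), and CYP2J2, an epoxygenase of fatty acids, by 0.70 ± 0.10 (adjusted p = 4.3e-04). Alcohol dehydrogenase 1, which oxidises alcohols and retinol, was among those that fell. It had 324, 223, 245 and 223 CPM at 3.4 mg/L, against 564, 485, 405 and 495 CPM in the controls, with no overlap (log2 fold change -0.94 ± 0.12, adjusted p = 1.4e-04). Many of these enzymes are abundant in the liver, whose summed markers were 1585 to 1826 CPM at 3.4 mg/L and 2947 to 3545 CPM in the controls, and the part of that difference here was not tested. At 3.4 mg/L most of that sum was a single transcript, Ambp.

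Conjugating enzymes were as mixed, with 3 rises and 3 falls among 21 tested. Thiopurine S-methyltransferase, which methylates thiol groups on aromatic rings, had 209, 266, 311 and 225 CPM at 3.4 mg/L, against 48.2, 61.6, 82.4 and 53.5 CPM in the controls and rose by 2.03 ± 0.19 (adjusted p = 6.7e-06). Glutathione S-transferase alpha 1 had 389.5, 503, 558 and 508 CPM at 3.4 mg/L, against 127, 178, 183 and 185 CPM in the controls (log2 fold change 1.53 ± 0.13, adjusted p = 4.1e-06). UDP-glucuronosyltransferase 1-1-like, which adds glucuronic acid, had 70.3, 61.7, 69.1 and 62.4 CPM at 3.4 mg/L, against 21.5, 26.7, 33.1 and 33.7 CPM in the controls (log2 fold change 1.18 ± 0.12, adjusted p = 1.9e-05). The falls were smaller and were all glutathione S-transferases of other classes. The kappa 1 enzyme of mitochondria fell by 0.33 ± 0.08 (adjusted p = 0.013), the P 1-like enzyme by 0.81 ± 0.20 (adjusted p = 0.014) and a theta enzyme by 0.53 ± 0.13 (adjusted p = 0.018). None of these 3 passed when exposed library B was left out. The P 1-like call was also lost without exposed C, and the theta call without control B or C.

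Of 22 tested transporters 3 rose and 1 fell, with a median of 0.39. Multidrug resistance protein 1-like, an ABC pump that exports many foreign compounds, had 383, 507, 707 and 519 CPM at 3.4 mg/L, against 46.4, 37.5, 54.9 and 32.7 CPM in the controls. The lowest exposed value stood far above the highest control, and the log2 fold change was 3.63 ± 0.22 (adjusted p = 2.2e-07). A solute carrier organic anion transporter of the 1C1 type, an uptake carrier that in mammals moves thyroid hormone and organic anions, had 210.0, 228, 249 and 234 CPM at 3.4 mg/L, against 27.3, 61.5, 59 and 53.8 CPM in the controls. Its exposed values were close together and the change was 2.16 ± 0.19 (adjusted p = 4.5e-06). The bile salt export pump, which moves bile salts from hepatocytes into bile, had 35.5, 20, 18.1 and 22.95 CPM at 3.4 mg/L, against 6.96, 8.76, 8.57 and 8.08 CPM in the controls (log2 fold change 1.56 ± 0.24, adjusted p = 4.8e-04). Multidrug and toxin extrusion protein 2-like, an exporter of organic cations, was the one that fell, with 38.7, 28.9, 23.5 and 30.8 CPM at 3.4 mg/L, against 81.8, 61.7, 56.4 and 70.7 CPM in the controls and a change of -1.14 ± 0.18 (adjusted p = 6.8e-04). Outside the list, a sulfate transporter-like transcript had 41.6, 59.9, 58.8 and 42.8 CPM at 3.4 mg/L, against 8.12, 7.38, 8.03 and 9.54 CPM in the controls and rose by 2.62 ± 0.16 (adjusted p = 2.5e-07).

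Several genes that handle damaged protein rose. The hsp70 transcript, an inducible chaperone, had 145, 150.3, 179.9 and 211 CPM at 3.4 mg/L, against 7.54, 6.92, 4.23 and 9.88 CPM in the controls, a wide gap with a log2 fold change of 4.60 ± 0.47 (adjusted p = 1.8e-05). Of 28 tested heat shock proteins and co-chaperones 8 rose and none fell, with a median of 0.30. Heat shock protein beta-8-like rose by 0.74 ± 0.10 (adjusted p = 1.4e-04) and its partner BAG3-like, which sends clients to autophagy, by 0.84 ± 0.21 (adjusted p = 0.015). Exposed library A was barely above the highest control for BAG3-like, whose call was lost without exposed library C or control D. The cytosolic folding genes moved less. T-complex protein 1 subunit alpha rose by 0.29 ± 0.06 (adjusted p = 0.003), BAG1 by 0.31 ± 0.06 (adjusted p = 0.0041) and Hsp90beta by 0.21 ± 0.06 (adjusted p = 0.042). The call of Hsp90beta was lost in each of the 8 fits that left out 1 library and in every other alternative except the DESeq2 Wald test. The count of 8 became 5 without exposed library B, C or D or without control A, and 4 when only the 8 libraries compared were fitted. With the deepest run 5 rose and 1 fell.

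In the proteasome and ubiquitin list 9 of 15 tested members rose and 1 fell, with a median of 0.50. Proteasome subunit beta type-5-like, which carries the chymotrypsin-like site, had 339, 352, 372 and 410.0 CPM at 3.4 mg/L, against 189, 209.9, 178 and 185 CPM in the controls (log2 fold change 0.95 ± 0.09, adjusted p = 8.1e-06). Subunit alpha type 1 had 314, 306, 336 and 338 CPM at 3.4 mg/L, against 205, 206, 212 and 202 CPM in the controls. Its control values were nearly equal, and the change was 0.65 ± 0.04 (adjusted p = 3.8e-07). The regulatory ATPase Psmc4 rose by 0.46 ± 0.06 (adjusted p = 1.6e-04), proteasome maturation protein-like by 0.42 ± 0.06 (adjusted p = 1.8e-04) and ubiquitin by 0.70 ± 0.08 (adjusted p = 5.1e-05). The activator complex subunit 2-like, part of the interferon-linked cap of the proteasome, had 113, 98.7, 114 and 118 CPM at 3.4 mg/L, against 157, 186, 177 and 145 CPM in the controls and fell by 0.59 ± 0.10 (adjusted p = 0.0015). Leaving out any 1 library gave 8 or 9 rises and 1 fall. In the list of endoplasmic reticulum stress and ATF4 targets, 1 of 17 tested members rose (2 without control D) and 2 fell. The eIF2-alpha kinase 3-like transcript, named for the kinase PERK that slows translation, had 25.2, 22.9, 28.5 and 34.3 CPM at 3.4 mg/L, against 12.8, 11.99, 10.96 and 11.7 CPM in the controls and rose by 1.23 ± 0.24 (adjusted p = 0.0032). ATF4, the transcription factor downstream of that kinase, had 879.9, 928, 891 and 966 CPM at 3.4 mg/L, against 1108, 1098, 1051 and 1033 CPM in the controls and fell by 0.23 ± 0.04 (adjusted p = 0.0025). Protein disulfide isomerase A2, an enzyme of the pancreas in mammals, fell by 0.78 ± 0.18 (adjusted p = 0.01). Threonine--tRNA ligase, which charges threonine tRNA, had 156, 191, 212 and 195 CPM at 3.4 mg/L, against 66.7, 79.2, 74.3 and 82.6 CPM in the controls and rose by 1.31 ± 0.09 (adjusted p = 4.0e-07).

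Red cell genes rose. Of 10 tested members of the globin, haem and red cell list 6 rose and none fell, with a median of 1.40. Leaving out 1 library gave 4 to 6 rises, no fall and a median of 1.14 to 1.57. With only the 8 libraries compared, or with the lane as a term, 4 rose. Haemoglobin subunit alpha-3 had 11692, 6095, 8942 and 10242 CPM at 3.4 mg/L, against 1658, 3376, 4207 and 3334 CPM in the controls. Exposed library B was the lowest of its group and still above every control, and the change was 1.55 ± 0.27 (adjusted p = 0.0013). Haemoglobin subunit alpha-5 had 116, 71.3, 123 and 98.3 CPM at 3.4 mg/L, against 5.80, 19.9, 24.5 and 18.7 CPM in the controls (log2 fold change 2.49 ± 0.30, adjusted p = 6.4e-05). Haemoglobin subunit beta-2-like had 219, 216, 366 and 352 CPM at 3.4 mg/L, against 29.6, 78.6, 108 and 47.03 CPM in the controls (log2 fold change 2.10 ± 0.36, adjusted p = 0.0012). Control A was the lowest control in all 3. The red cell membrane protein Rh type A-like averaged 86.4 ± 21.6 CPM at 3.4 mg/L and 47.8 ± 12.2 CPM in the controls and rose by 0.84 ± 0.22 (adjusted p = 0.021), with exposed library A below control B and with the call lost without exposed library C or D or control A, C or D. Globin transcripts are near copies of each other, and the way reads were shared between them by the authors' counting is not known here, so their single values are uncertain. Summed over the list, red cell markers reached 6544 to 12162 CPM at 3.4 mg/L and 1759 to 4441 CPM in the controls. Most of this sum was the single transcript of haemoglobin subunit alpha-3. It gave 11692 of 12162 CPM in exposed library A and 1658 of 1759 CPM in control A. Fth1, the heavy chain of ferritin, had 27160.0, 27824, 31247 and 30181 CPM at 3.4 mg/L, against 12663, 12469, 13410.0 and 12416 CPM in the controls and rose by 1.19 ± 0.07 (adjusted p = 2.8e-07). Cytoplasmic aconitate hydratase, the enzyme form of an iron sensor, rose by 0.88 ± 0.12 (adjusted p = 1.8e-04), and the other 6 tested iron genes did not pass.

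Immune genes that changed mostly fell. Of 14 tested genes of interferon response and antigen presentation 6 fell and 1 rose, with a median of -0.62 (-0.34 without control C). Interferon regulatory factor 1, a transcription factor of that response, had 65.7, 65.2, 61.03 and 64.4 CPM at 3.4 mg/L, against 176, 156, 198 and 125 CPM in the controls. Exposed values agreed closely, and the change was -1.35 ± 0.14 (adjusted p = 1.8e-05). DDX58, the RIG-I sensor of viral RNA, had 33.6, 32.6, 39.8 and 31.8 CPM at 3.4 mg/L, against 63.8, 82.7, 78.2 and 97.4 CPM in the controls (log2 fold change -1.23 ± 0.14, adjusted p = 4.8e-05). The immunoproteasome subunit psmb8 had 19.9, 12.8, 15.99 and 10.02 CPM at 3.4 mg/L, against 41.8, 59.04, 65.1 and 48.4 CPM in the controls (log2 fold change -1.87 ± 0.27, adjusted p = 2.9e-04). An MHC class I antigen fell by 0.85 ± 0.13 (adjusted p = 6.1e-04), the peptide-loading protein tapasin by 1.79 ± 0.46 (adjusted p = 0.019) and interferon regulatory factor 8, which directs myeloid cell development, by 0.75 ± 0.14 (adjusted p = 0.0025). The call of tapasin was lost without exposed library B or C or control B or C. The member that rose, interferon-inducible GTPase 5-like, was singled out after its values were seen. It had 47.02, 58.05, 54.7 and 61.5 CPM at 3.4 mg/L, against 23.8, 29.3, 41.8 and 39.8 CPM in the controls and changed by 0.70 ± 0.19 (adjusted p = 0.023), a call lost without exposed library B, C or D or control A or B.

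Of 35 tested inflammation and innate immune genes 7 fell and none rose, with a median of -0.23. Inducible nitric oxide synthase, which makes nitric oxide in activated macrophages, had 4.32, 3.29, 2.95 and 3.13 CPM at 3.4 mg/L, against 9.87, 20.8, 24.6 and 14.3 CPM in the controls. Exposed values sat close together and the controls spread more than 2-fold (log2 fold change -2.35 ± 0.30, adjusted p = 1.1e-04). The NF-kappa-B inhibitor alpha, itself a target of NF-kappa-B, had 227, 216, 224 and 212 CPM at 3.4 mg/L, against 375, 301, 326 and 349 CPM in the controls and fell by 0.62 ± 0.07 (adjusted p = 5.1e-05). A Fas ligand-like member of the tumour necrosis factor family fell by 1.78 ± 0.34 (adjusted p = 0.003), neutrophil cytosol factor 1, a subunit of the phagocyte oxidase, by 0.53 ± 0.13 (adjusted p = 0.015) and prostaglandin G/H synthase 1 by 0.34 ± 0.07 (adjusted p = 0.0066). The call of neutrophil cytosol factor 1 was lost without exposed library C. Leaving out control A or control D brought 1 rise into this list. Outside these lists, leukocyte elastase inhibitor, a serpin of myeloid cells, had 164, 123, 126 and 142 CPM at 3.4 mg/L, against 294, 289.6, 302 and 269 CPM in the controls and fell by 1.06 ± 0.09 (adjusted p = 3.2e-06).

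Among 19 tested complement and coagulation genes 7 fell and 1 rose, with a median of -0.47. Complement factor B, of the alternative pathway, had 12.1, 22.01, 26.8 and 14.4 CPM at 3.4 mg/L, against 214, 119, 105 and 155 CPM in the controls. Every exposed value was far below every control (log2 fold change -2.97 ± 0.40, adjusted p = 1.8e-04). Complement C3, the central component, had 1460.5, 1243, 1155 and 1293 CPM at 3.4 mg/L, against 2254, 2112, 1912 and 2087 CPM in the controls, a smaller and tight difference of -0.70 ± 0.08 (adjusted p = 5.6e-05). Complement factor H-like, a brake on C3, fell by 0.72 ± 0.09 (adjusted p = 9.6e-05), C1q subunit C by 0.60 ± 0.11 (adjusted p = 0.0021) and C8 beta-like by 0.91 ± 0.22 (adjusted p = 0.013). Fibrinogen gamma chain-like was the member that rose, at a low level of 2.69 ± 0.630 CPM at 3.4 mg/L and 0.516 ± 0.204 CPM in the controls (2.37 ± 0.44, adjusted p = 0.0022). Complement proteins are made largely in the liver in vertebrates. Summed markers of the liver, at 3.4 mg/L mostly Ambp, were 1585 to 1826 CPM at 3.4 mg/L and 2947 to 3545 CPM in the controls, and their part in this list was not tested.

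Genes of liver and gut fell. Of 10 tested liver secreted proteins and plasma carriers 6 fell and none rose, with a median of -0.86, and each of the 8 fits that left out 1 library also gave 6 falls. Transthyretin, the plasma carrier of thyroid hormone, had 129.9, 83.3, 150.2 and 97.5 CPM at 3.4 mg/L, against 470.0, 601, 624 and 497 CPM in the controls and fell by 2.25 ± 0.20 (adjusted p = 5.4e-06). Fetuin-B, a plasma protease inhibitor, had 60.4, 51, 69.1 and 76.2 CPM at 3.4 mg/L, against 169, 197, 166 and 133 CPM in the controls and fell by 1.38 ± 0.19 (adjusted p = 2.2e-04). Ambp, the precursor of alpha-1-microglobulin and bikunin, had 1185, 973, 943 and 1123 CPM at 3.4 mg/L, against 1567, 1834, 1958 and 1504 CPM in the controls and fell by 0.70 ± 0.11 (adjusted p = 4.9e-04). Summed over the list, liver markers were 1585 to 1826 CPM at 3.4 mg/L and 2947 to 3545 CPM in the controls, and 5 of their 23 transcripts had no counts in any of the 8 libraries. Ambp alone gave 1185 of 1826 CPM in exposed library A and 1567 of 2947 CPM in control A, so the sum rests largely on a single transcript.

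All 13 tested markers of the intestinal epithelium had log2 fold changes below 0, with a median of -0.92, and 8 of them were called lower. The intestinal fatty acid-binding protein fabp2 had 1293, 539, 474 and 844 CPM at 3.4 mg/L, against 2163, 3004, 2995 and 1959 CPM in the controls. Exposed library A was the highest of its group and below every control (log2 fold change -1.68 ± 0.27, adjusted p = 8.5e-04). Maltase-glucoamylase, which splits starch sugars on the brush border, had 2025, 1272, 1530.5 and 1454 CPM at 3.4 mg/L, against 2944, 2907, 4229 and 3867 CPM in the controls (log2 fold change -1.15 ± 0.16, adjusted p = 2.2e-04). The glucose carrier SGLT1-like had 669, 438, 407 and 494 CPM at 3.4 mg/L, against 901, 995, 1036 and 858 CPM in the controls (log2 fold change -0.92 ± 0.13, adjusted p = 2.9e-04). Angiotensin-converting enzyme 2, a brush border peptidase, had 654, 410.2, 374 and 490.3 CPM at 3.4 mg/L, against 883, 879.6, 929 and 908 CPM in the controls, with controls close together (SD 22.9 CPM) and a change of -0.90 ± 0.15 (adjusted p = 8.7e-04). Transmembrane 4 L6 family member 20, a related membrane protein, had 77.2, 44.2, 38.4 and 52.05 CPM at 3.4 mg/L, against 313, 512, 606 and 419.6 CPM in the controls and fell by 3.13 ± 0.31 (adjusted p = 1.1e-05). Transmembrane 4 superfamily member 4, a tetraspanin-like protein outside the list, had 96.96, 37.04, 56.1 and 52.5 CPM at 3.4 mg/L, against 292, 259, 301 and 231 CPM in the controls and fell by 2.16 ± 0.24 (adjusted p = 3.5e-05). The zinc importer ZIP4-like had 28.8, 27.3, 25.4 and 26.6 CPM at 3.4 mg/L, against 80.7, 72.5, 61.2 and 69.6 CPM in the controls and fell by 1.39 ± 0.13 (adjusted p = 8.1e-06). The proton pump of the stomach (potassium-transporting ATPase alpha chain 1), also outside the list, had 4089.8, 2914, 2558 and 3401 CPM at 3.4 mg/L, against 4941, 5915, 7973 and 6860.0 CPM in the controls and fell by 0.99 ± 0.19 (adjusted p = 0.0026). Summed over the list, gut markers were 3378 to 5569.7 CPM at 3.4 mg/L and 8064 to 10857 CPM in the controls, with exposed library A the highest of its group.

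Some pancreatic enzymes fell. Of 11 tested, 3 fell and none rose, with a median of -0.58. Colipase-like, the cofactor of pancreatic lipase, had 869, 561, 458 and 640.1 CPM at 3.4 mg/L, against 1237, 1166, 1649 and 1519 CPM in the controls and fell by 1.14 ± 0.20 (adjusted p = 0.0018). Inactive pancreatic lipase-related protein 1 fell by 2.06 ± 0.35 (adjusted p = 0.0012) and a pancreatic triacylglycerol lipase by 0.74 ± 0.19 (adjusted p = 0.018), a call lost without exposed library B or C or control C. Trypsin had 6750.1, 4468, 3911 and 5634 CPM at 3.4 mg/L, against 5997, 6084, 7570.4 and 7639 CPM in the controls, an overlapping range with a change of -0.39 ± 0.19 (adjusted p = 0.25) that did not pass. The summed level of pancreatic markers overlapped as well, at 11644 to 20351 CPM at 3.4 mg/L and 19412 to 25761 CPM in the controls.

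**Figure D3:**
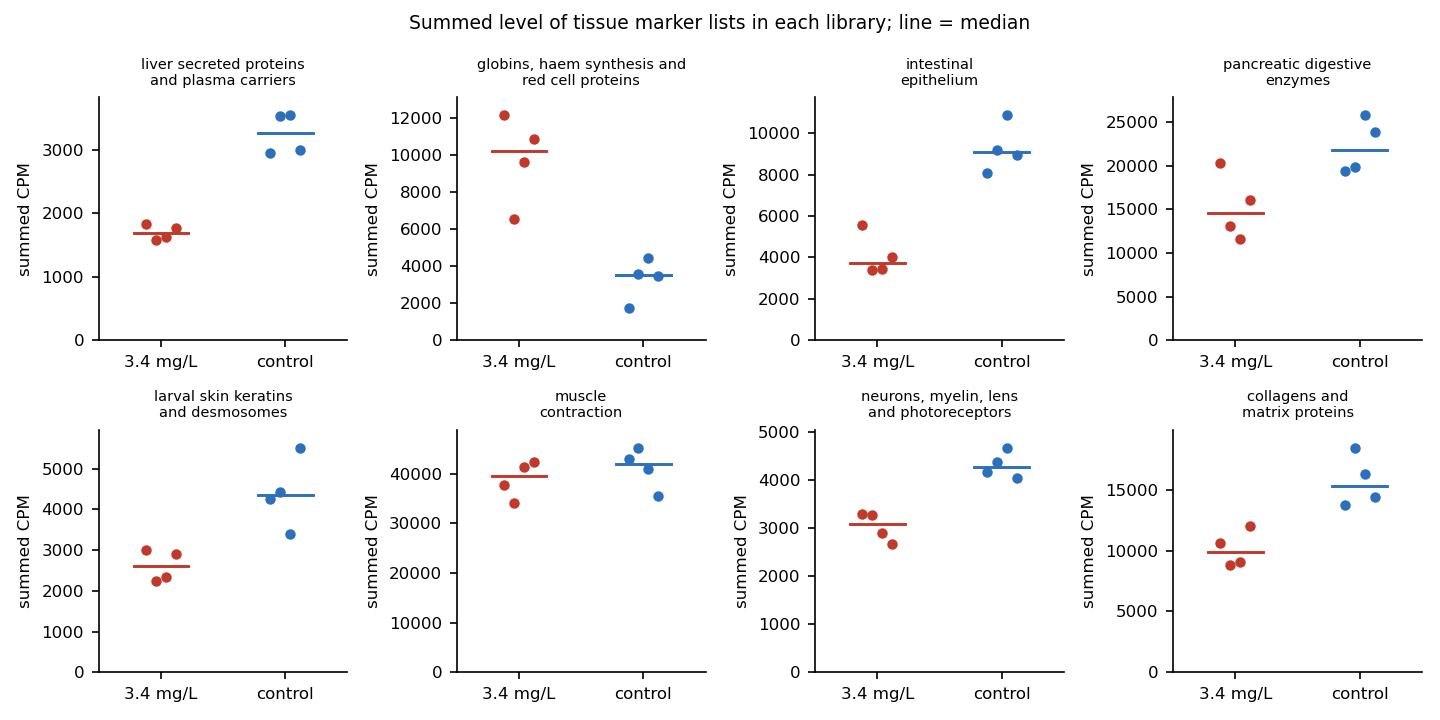
Summed CPM of the transcripts in 8 tissue marker lists, 1 point per library, with 3.4 mg/L in red on the left and controls in blue on the right, and the median as a line. Liver, gut, skin, nerve and eye, and matrix sums were lower in every exposed library than in every control, the red cell sum was higher in every one, and the pancreas and muscle sums overlapped. Most of the red cell sum was haemoglobin subunit alpha-3 in each library, and most of the liver sum at 3.4 mg/L was Ambp.

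Many secreted proteins of mucus and skin fell. Of 23 tested mucus, lectin and secretory genes 9 fell and 1 rose, with a median of -0.76. The surfactant protein D-like lectin had 103, 33.5, 86.4 and 59.2 CPM at 3.4 mg/L, against 742, 1195, 941 and 759 CPM in the controls and fell by 3.69 ± 0.44 (adjusted p = 6.3e-05). Mucin-2-like, a gel-forming mucin, had 4.69, 3.15, 5.62 and 2.69 CPM at 3.4 mg/L, against 8.70, 40.7, 33.5 and 28.8 CPM in the controls, with control A far below the other controls and still above every exposed library (log2 fold change -2.80 ± 0.43, adjusted p = 5.6e-04). Galectin-4-like, a lectin of digestive epithelia in mammals, had 472, 471, 493 and 467 CPM at 3.4 mg/L, against 801, 808, 783 and 832 CPM in the controls. Each group was tight, and the change was -0.76 ± 0.05 (adjusted p = 3.5e-07). Uromodulin-like, named after a filament-forming protein of the kidney in mammals, had 10.7, 4.56, 9.71 and 2.05 CPM at 3.4 mg/L, against 37.1, 78.2, 122 and 42.4 CPM in the controls (log2 fold change -3.38 ± 0.62, adjusted p = 0.0021). The one that rose was surfactant protein A-like, a collectin, with 374, 354, 272 and 361 CPM at 3.4 mg/L, against 177, 165, 160.3 and 184 CPM in the controls and a change of 0.99 ± 0.10 (adjusted p = 1.4e-05). Outside the list, a transcript named thread biopolymer filament subunit gamma-like, after the slime thread protein of hagfish, had 519, 336, 421 and 597 CPM at 3.4 mg/L, against 1405, 2034, 1892 and 1434 CPM in the controls and fell by 1.85 ± 0.17 (adjusted p = 5.4e-06). Olfactomedin 4, a secreted glycoprotein of gut crypts in mammals, averaged 8.29 ± 3.46 CPM at 3.4 mg/L and 49.5 ± 27.5 CPM in the controls and fell by 2.58 ± 0.47 (adjusted p = 0.002).

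Of 26 tested larval skin keratins and desmosomal genes 5 fell and none rose, with a median of -0.27, and 3 fell when exposed library C was left out, while the DESeq2 Wald test called 8 lower. Keratin 5 had 709, 368, 429 and 793 CPM at 3.4 mg/L, against 1062, 1404, 853 and 1557 CPM in the controls (log2 fold change -1.09 ± 0.27, adjusted p = 0.015), a call lost without exposed library C. Periplakin, which ties keratin to desmosomes, had 48.6, 37.9, 19.1 and 51.2 CPM at 3.4 mg/L, against 131, 181, 99.6 and 122 CPM in the controls and fell by 1.77 ± 0.31 (adjusted p = 0.0016). Uroplakin-2-like, a membrane plaque protein, fell by 0.44 ± 0.09 (adjusted p = 0.0033). Keratin transcripts resemble each other closely, and their single values are uncertain for the same reason as the globins. Summed skin markers were 2252 to 3004 CPM at 3.4 mg/L and 3387 to 5512 CPM in the controls.

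Matrix genes that were called all fell. Of 67 tested collagens and matrix proteins 19 fell and none rose, with a median of -0.38. Leaving out 1 library gave 13 to 23 falls and no rise. With only the 8 libraries compared there were 13 falls, and the DESeq2 Wald test called 28 lower. The lane as a term gave 16 falls and 1 rise. Collagen IX alpha 1, a cartilage collagen, had 575, 519.9, 533 and 659 CPM at 3.4 mg/L, against 1039, 1446, 1285 and 1178 CPM in the controls and fell by 1.11 ± 0.15 (adjusted p = 1.7e-04). Periostin, a matricellular protein, had 189.6, 144, 189 and 216 CPM at 3.4 mg/L, against 375, 388, 322 and 305 CPM in the controls (log2 fold change -0.91 ± 0.11, adjusted p = 7.6e-05). Lysyl oxidase, which crosslinks collagen, had 19.8, 21.6, 18.4 and 18.1 CPM at 3.4 mg/L, against 42.4, 44.8, 27.4 and 42.9 CPM in the controls (log2 fold change -1.01 ± 0.15, adjusted p = 3.8e-04). Decorin, a small proteoglycan that binds collagen, fell by 0.70 ± 0.10 (adjusted p = 3.9e-04). None of the 14 tested matrix metalloproteinases and their inhibitors was called by edgeR. At an unadjusted p under 0.05 there were 3, the DESeq2 Wald test called 1 higher and 2 lower, and edgeR without control A called 2 lower. Summed matrix markers were 8788 to 12039 CPM at 3.4 mg/L and 13727 to 18446 CPM in the controls.

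Some genes of nerve, eye and muscle were called, most of them lower. Of 40 tested genes of neurons, myelin, lens and photoreceptors 6 fell and none rose, with a median of -0.09 that turned positive without exposed library A or C or control B. The lens protein Cryba1 had 892, 889, 775 and 696 CPM at 3.4 mg/L, against 1215, 1284, 1360.2 and 1166 CPM in the controls and fell by 0.63 ± 0.09 (adjusted p = 2.8e-04), and gamma-crystallin 1 fell by 0.46 ± 0.09 (adjusted p = 0.0026). Crystallins too are near copies of each other. Myelin proteolipid protein B had 135, 126, 177 and 152 CPM at 3.4 mg/L, against 345, 218, 212 and 228 CPM in the controls and fell by 0.76 ± 0.18 (adjusted p = 0.01), with control A the highest of all. Of 25 tested muscle genes 4 fell and 2 rose, with a median of -0.09. Myosin-4-like, a fast myosin heavy chain, had 139, 172, 192 and 146 CPM at 3.4 mg/L, against 539, 713, 517 and 520.1 CPM in the controls (log2 fold change -1.82 ± 0.21, adjusted p = 5.6e-05). Neither of the 2 rises held when control A was left out, and 1 rise was called without any of exposed B, C and D or controls B, C and D. Leaving out control B brought 1 rise into the nerve and eye list. Summed nerve and eye markers were 2664 to 3283 CPM at 3.4 mg/L and 4041 to 4669 CPM in the controls, and summed muscle markers 33999 to 42266 CPM at 3.4 mg/L and 35583 to 45242 CPM in the controls.

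**Figure D4:**
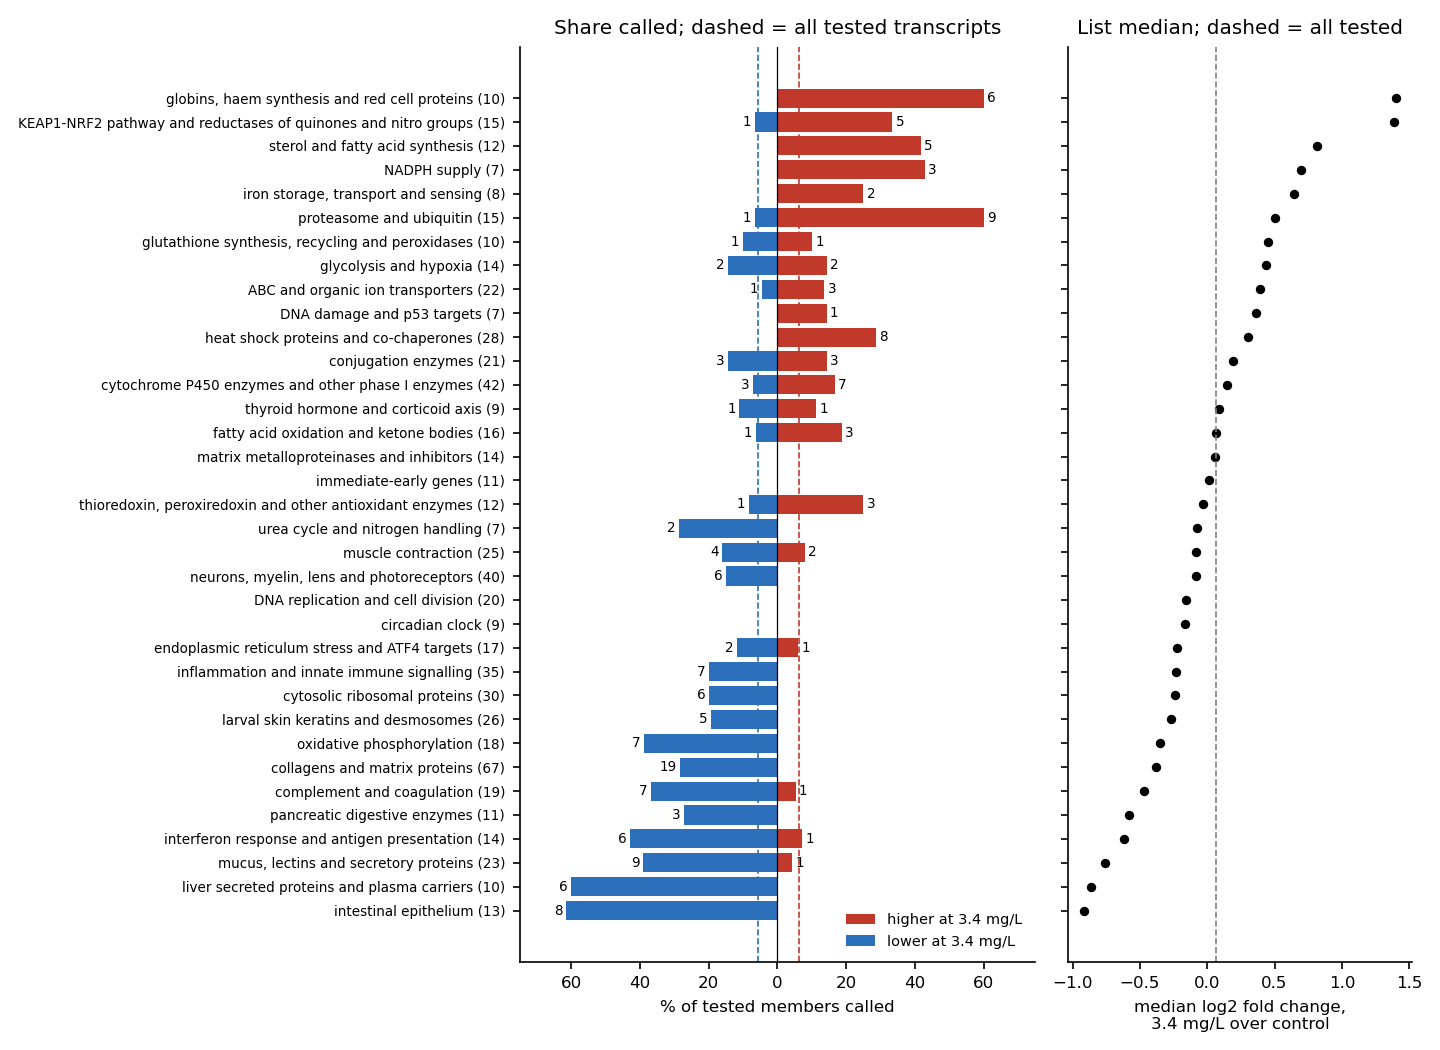
For each of 35 gene lists (tested members in brackets, ordered by median), the left panel gives the percent of tested members called higher (red) or lower (blue) at 3.4 mg/L, with the number of genes at the bar end and dashed lines at 6.37% and 5.61%, the shares over all tested transcripts. The right panel gives the median log2 fold change of the tested members, with the dashed line at 0.06 for all transcripts.

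In energy metabolism, complex I and other respiratory genes fell in part. Of 18 tested genes of oxidative phosphorylation 7 fell and none rose, with a median of -0.35. NADH dehydrogenase alpha subunit 3, of complex I, had 171, 159, 155 and 164 CPM at 3.4 mg/L, against 245, 270.4, 277 and 223 CPM in the controls and fell by 0.65 ± 0.10 (adjusted p = 5.0e-04), and Ndufa13, another complex I subunit, fell by 0.45 ± 0.07 (adjusted p = 5.5e-04). The outer membrane channel VDAC1 had 289, 290.2, 292 and 274 CPM at 3.4 mg/L, against 418, 448, 433 and 388 CPM in the controls, again with tight groups (log2 fold change -0.56 ± 0.05, adjusted p = 6.9e-06). Mitochondrial creatine kinase fell by 0.61 ± 0.12 (adjusted p = 0.0039). ATPase family AAA domain-containing protein 3-A, a protein of the mitochondrial inner membrane, went the other way, with 139, 187, 188 and 163 CPM at 3.4 mg/L, against 69.6, 58.7, 67.9 and 89.2 CPM in the controls and a change of 1.25 ± 0.13 (adjusted p = 2.8e-05). In glycolysis and hypoxia 2 of 14 tested genes rose and 2 fell. The hexokinase HKDC1 rose by 0.49 ± 0.10 (adjusted p = 0.0041) and EGLN1, an oxygen-sensing hydroxylase of hypoxia-inducible factor, by 0.38 ± 0.09 (adjusted p = 0.011). Lactate dehydrogenase B had 3269.8, 2125, 2530.5 and 2453 CPM at 3.4 mg/L, against 5227, 3560.1, 4843 and 4976 CPM in the controls and fell by 0.84 ± 0.22 (adjusted p = 0.023), and triosephosphate isomerase-like fell by 0.33 ± 0.08 (adjusted p = 0.013). Without exposed library B neither fall passed, and that of lactate dehydrogenase B also failed without exposed C or D or control A, C or D. The call of EGLN1 was lost without control B. Of 89 names of cytosolic ribosomal proteins only 30 were tested, and of these 6 fell and none rose. The sizes were small, as in S19 (-0.29 ± 0.06, adjusted p = 0.003), and 2 falls were left without exposed library B or with the sequencing lane as a term.

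Lipid genes rose in part. Of 12 tested genes of sterol and fatty acid synthesis 5 rose and none fell, with a median of 0.82 (0.54 without control C). Squalene monooxygenase-like, a rate-controlling step towards cholesterol, had 30.5, 32.5, 43.4 and 45.05 CPM at 3.4 mg/L, against 19.7, 13.9, 18.9 and 12.8 CPM in the controls (log2 fold change 1.23 ± 0.23, adjusted p = 0.0027). Diphosphomevalonate decarboxylase-like, of the mevalonate route, had 52.4, 54.7, 67.8 and 76.2 CPM at 3.4 mg/L, against 19.1, 32.8, 31.2 and 27.05 CPM in the controls (log2 fold change 1.16 ± 0.19, adjusted p = 9.2e-04). Squalene synthase-like rose by 1.11 ± 0.33 (adjusted p = 0.039), with control A close to the lowest exposed library. The count of 5 became 3, and squalene synthase-like lost its call, when any library except exposed A or control A was left out. A transcript named lysosomal acid lipase, which frees cholesterol and fatty acids in lysosomes, had 37.5, 29.9, 50.8 and 58.1 CPM at 3.4 mg/L, against 3.48, 6.92, 5.42 and 1.57 CPM in the controls, a wide gap with a change of 3.30 ± 0.46 (adjusted p = 2.4e-04). The nuclear receptor PPAR-gamma, which drives fat storage, rose by 0.65 ± 0.09 (adjusted p = 2.8e-04), as 1 of 3 rises among 16 tested genes in the list of fatty acid oxidation and ketone bodies, in which 1 fell.

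In nitrogen handling 2 of 7 tested genes fell and none rose. Argininosuccinate synthase, of the urea cycle and arginine recycling, had 211, 224, 228 and 205 CPM at 3.4 mg/L, against 510.1, 529.9, 529 and 664 CPM in the controls and fell by 1.36 ± 0.14 (adjusted p = 1.8e-05). Urea transporter 2-like had 6.19, 2.01, 1.90 and 8.94 CPM at 3.4 mg/L, against 16.8, 31, 21.6 and 25.6 CPM in the controls, and its exposed values spread more than 4-fold below the controls (-2.33 ± 0.44, adjusted p = 0.0027). In the thyroid and corticoid list, transthyretin was the only fall among 9 tested and thyroglobulin, the precursor of thyroid hormone, the only rise. Thyroglobulin had 32.8, 34.6, 23.7 and 25.2 CPM at 3.4 mg/L, against 21.5, 11.2, 13.4 and 6.96 CPM in the controls and changed by 1.17 ± 0.31 (adjusted p = 0.022), a call lost without any of exposed libraries A and B or controls B, C and D. Growth arrest and DNA damage 45 alpha rose by 0.36 ± 0.10 (adjusted p = 0.029) as the only one of 7 tested genes of DNA damage and p53 response. That call was kept only when exposed library A was the one left out. No gene was called by edgeR among 20 of DNA replication and cell division and 11 immediate-early genes, with medians of -0.16 (-0.30 without control A) and 0.01 (-0.13 without exposed library A). In these lists no gene had an unadjusted p under 0.05 and the DESeq2 Wald test called none. Among 9 circadian clock genes, with a median of -0.17 (-0.01 without control A), edgeR also called none, 2 had an unadjusted p under 0.05 and the Wald test called 2 lower. A clock-related factor, hepatic leukemia factor-like, had 23.7, 27.1, 25.99 and 27.6 CPM at 3.4 mg/L, against 30.2, 34.4, 34.4 and 32.5 CPM in the controls, with no overlap and an adjusted p of 0.076, and it was called lower with DESeq2 size factors, by the Wald test and without control A.

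A few single genes outside these groups had clear differences. Urotensin II related peptide, a signalling peptide of the nervous system, had 4.88, 7.11, 6.47 and 5.28 CPM at 3.4 mg/L, against 29.6, 20.2, 25.7 and 21.2 CPM in the controls and fell by 2.02 ± 0.20 (adjusted p = 1.6e-05). Melanoregulin-like, which acts on pigment granules, had 22.2, 24.4, 21.7 and 18.8 CPM at 3.4 mg/L, against 51.6, 62.5, 63.3 and 53.4 CPM in the controls and fell by 1.41 ± 0.13 (adjusted p = 7.1e-06). The inhibitor of the DNA-cutting nuclease of apoptosis (dffa) had 12.6, 13.9, 12.9 and 11.96 CPM at 3.4 mg/L, against 32.5, 32.8, 39.7 and 32.2 CPM in the controls and fell by 1.42 ± 0.14 (adjusted p = 1.6e-05).

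Some called transcripts had almost no counts in one of the groups, and for these only bounds or counting intervals are given. With 0 to 3 counts over the controls there were 14, of which 9 had a name. Homeodomain-interacting protein kinase 1, a nuclear kinase, had 246 counts over the 4 exposed libraries and none in the controls, at least 55.5-fold higher when the controls are set at 3 counts in all. The same bound was at least 54.2-fold for the DNA transposase THAP9 (240 counts against none) and at least 27.3-fold for a lipid flippase, phospholipid-transporting ATPase IA (121 counts against none). It was at least 40.4-fold for integrin alpha-5-like, a subunit of a fibronectin receptor (179 counts against none). Adult alpha globin had 525 counts at 3.4 mg/L and 2 in the controls, a ratio of 177.7 (95% exact counting interval 48.9 to 1471.2). With 0 to 3 counts over the exposed libraries there were 10, of which 8 had a name. Cysteine dioxygenase, which begins the breakdown of cysteine, had no counts at 3.4 mg/L and 89 in the controls, at least 43.8-fold lower, although control A also had none. BCL-6 corepressor-like protein 1 had 1 count at 3.4 mg/L and 325 in the controls, a depth-scaled ratio of 480.1 for control over exposed (95% exact counting interval 85.6 to 19020.3), with none in control A. Fibroblast growth factor 19, a gut hormone that answers to bile acids, had 3 counts at 3.4 mg/L and 105 in the controls, a ratio of 51.7 for control over exposed (interval 17.2 to 254.7). A transcript named probable alpha-ketoglutarate-dependent hypophosphite dioxygenase had none at 3.4 mg/L and 110 in the controls, at least 54.2-fold lower. Bounds and intervals here include counting error alone. Phospholipid-transporting ATPase IA, integrin alpha-5-like, adult alpha globin, fibroblast growth factor 19 and the hypophosphite dioxygenase kept their calls in all 8 fits that left out 1 library. The other 4 did not. Homeodomain-interacting protein kinase 1 lost its call in all 8 of these fits, and cysteine dioxygenase kept its call only without control A. The transposase lost its call without exposed library B or control B, C or D. BCL-6 corepressor-like protein 1 lost its call without exposed library A, B or C. The ATPase lost its call when transcripts of its name were summed.

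Set beside the next lower dose, few transcripts passed the test. Against 2.3 mg/L, 9 of 12648 transcripts were called (0.0712%, edgeR as above), 5 higher and 4 lower, and all 9 were also called against the control in the same direction. Both comparisons use the same libraries at 3.4 mg/L, so this shared direction is not a separate result. At an unadjusted p under 0.05 there were 1377, and the DESeq2 Wald test called 474. Leaving out exposed library B, C or D or any library at 2.3 mg/L left none, and leaving out exposed library A gave 154, the 9 among them. Few calls do not by themselves show that the doses acted alike. Summed gut markers were 3378 to 5569.7 CPM at 3.4 mg/L and 5638 to 6538 CPM at 2.3 mg/L. Summed liver markers were 1585 to 1826 CPM at 3.4 mg/L and 2345 to 2608 CPM at 2.3 mg/L. The sums of red cells, pancreas, skin, muscle, nerve and eye, and matrix overlapped between these doses. Differences in these sums were not tested. ATPase family AAA domain-containing protein 3-A had 65.8, 92.2 and 169 CPM at 1.5 mg/L, 2.3 mg/L and 3.4 mg/L, against 71.4 CPM in the controls, and changed by 0.88 ± 0.13 (adjusted p = 0.038) between the 2 upper doses. Threonine--tRNA ligase had 93.1, 123 and 188 CPM at 1.5 mg/L, 2.3 mg/L and 3.4 mg/L, against 75.7 CPM in the controls (change against 2.3 mg/L 0.62 ± 0.09, adjusted p = 0.038). Coiled-coil and C2 domain-containing protein 1B-like, a repressor of serotonin receptor genes in mammals, had 122, 127 and 170.1 CPM at 1.5 mg/L, 2.3 mg/L and 3.4 mg/L, against 140.5 CPM in the controls (change against 2.3 mg/L 0.42 ± 0.07, adjusted p = 0.04). Transmembrane 4 superfamily member 4 had 155, 183 and 60.6 CPM at 1.5 mg/L, 2.3 mg/L and 3.4 mg/L, against 271 CPM in the controls (change against 2.3 mg/L -1.59 ± 0.24, adjusted p = 0.038). The tetranectin-type lectin CLEC3B had 258, 222 and 138 CPM at 1.5 mg/L, 2.3 mg/L and 3.4 mg/L, against 265 CPM in the controls (change against 2.3 mg/L -0.69 ± 0.11, adjusted p = 0.04).

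Levels across the doses took several shapes, described here without a test because the 3 doses share the same controls. Multidrug resistance protein 1-like averaged 184, 302 and 529 CPM at 1.5 mg/L, 2.3 mg/L and 3.4 mg/L, against 42.9 CPM in the controls, and pirin averaged 533, 928 and 1815 CPM at 1.5 mg/L, 2.3 mg/L and 3.4 mg/L, against 187 CPM in the controls, higher at each step. The transcript named only cytochrome P450 averaged 729, 662 and 408 CPM at 1.5 mg/L, 2.3 mg/L and 3.4 mg/L, against 5.56 CPM in the controls, with its highest mean at the lowest dose. Inducible nitric oxide synthase averaged 4.00, 3.70 and 3.42 CPM at 1.5 mg/L, 2.3 mg/L and 3.4 mg/L, against 17.4 CPM in the controls, and complement factor B averaged 17.4, 11.1 and 18.8 CPM at 1.5 mg/L, 2.3 mg/L and 3.4 mg/L, against 148 CPM in the controls, so for both the lowest dose was already close to the highest. Fabp2 averaged 2823, 1994 and 788 CPM at 1.5 mg/L, 2.3 mg/L and 3.4 mg/L, against 2530.3 CPM in the controls, and fetuin-B 223, 126 and 64.2 CPM at 1.5 mg/L, 2.3 mg/L and 3.4 mg/L, against 167 CPM in the controls. For these the mean at 1.5 mg/L was above the control mean and only the upper doses were below it. Summed liver markers ranged from 2764 to 3875 CPM at 1.5 mg/L, from 2345 to 2608 CPM at 2.3 mg/L and from 1585 to 1826 CPM at 3.4 mg/L, against 2947 to 3545 CPM in the controls. Summed red cell markers ranged from 7004 to 9711 CPM at 1.5 mg/L, from 10908 to 18348 CPM at 2.3 mg/L and from 6544 to 12162 CPM at 3.4 mg/L, against 1759 to 4441 CPM in the controls. At 3.4 mg/L most of the liver sum was Ambp. At 3.4 mg/L and in the controls, most of the red cell sum was haemoglobin subunit alpha-3. The part of these tissue levels in the results for single genes was not tested.

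**Figure D5:**
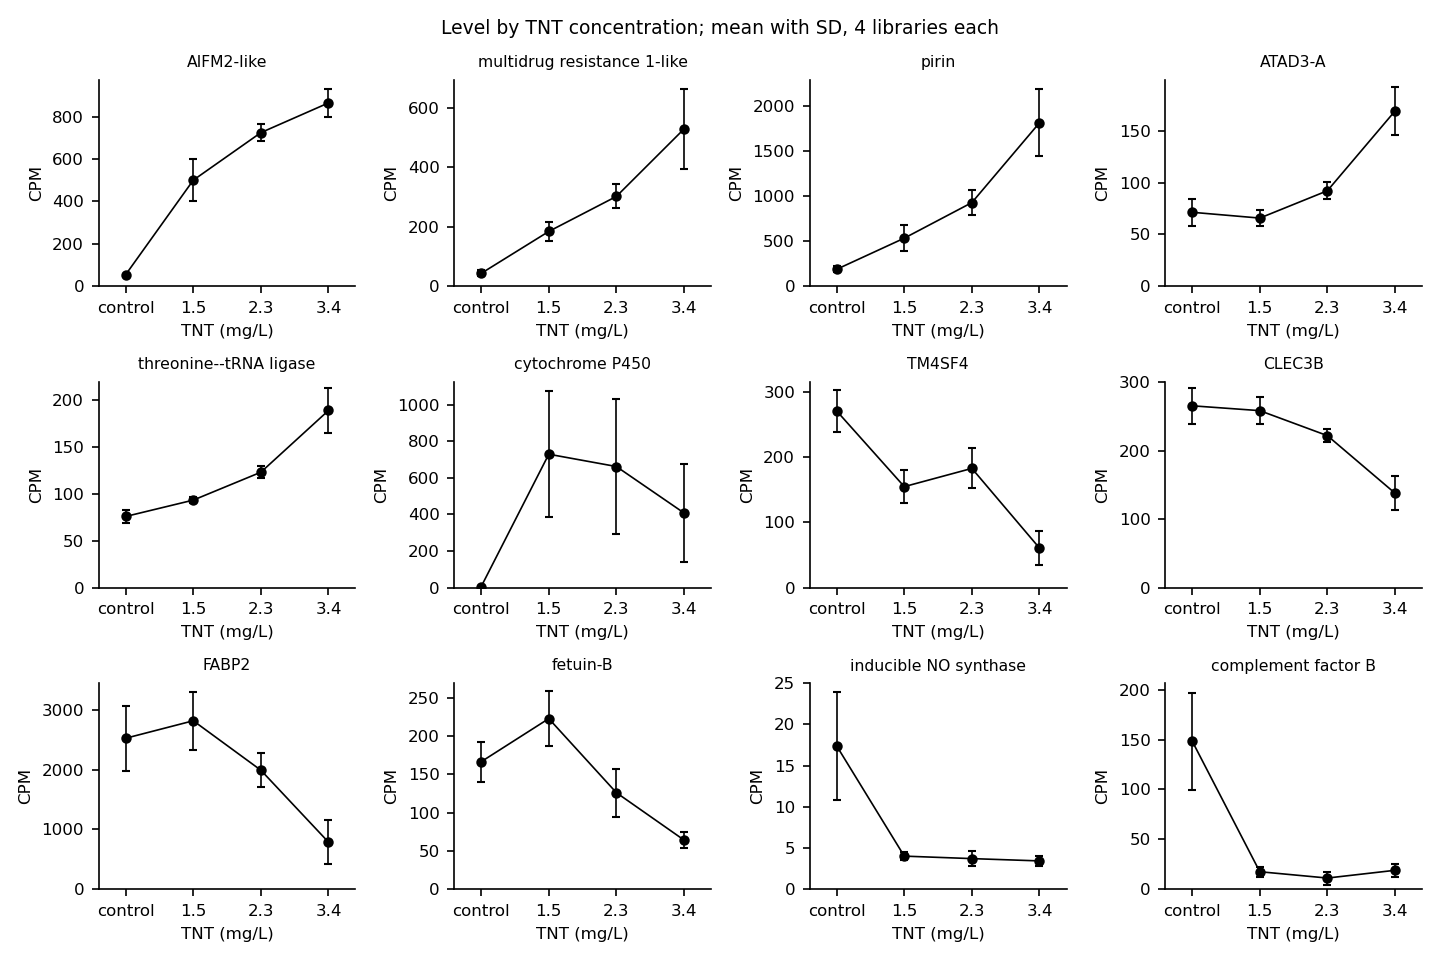
Mean CPM with SD (4 libraries each) in controls and at the 3 TNT doses for 12 transcripts, each on its own linear axis from 0. The upper row and the tRNA ligase were highest at 3.4 mg/L, the cytochrome P450 at 1.5 mg/L, TM4SF4, CLEC3B, FABP2 and fetuin-B were lowest at 3.4 mg/L, and inducible nitric oxide synthase and complement factor B were low at all 3 doses.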

How the data were processed

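Whole-body RNA was measured in 16 TNT libraries (4 each at 3.4, 2.3 and 1.5 mg/L and control). Per the labels' protocols, only RNA with an integrity number of at least 7 was pooled, and libraries were made from poly-A RNA. Per the submitters' processing notes, the authors used bcl2fastq 1.8.4 and Salmon (version not stated in the sources used here). They deposited estimated counts per transcript, 1 column per sequencing run. Per the file headers, the deposited score (E-value) is that of the match of a transcript to a Xenopus protein, and 47 rows exceeded 1e-05. Names are those of the best match, and 45.6% of the counts lay in transcripts without a usable name. The remaining 104 of 134 run columns belong to other exposures and were not used.

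The runs of a library were summed and rounded. A model of all 16 libraries was fitted with edgeR 4.0.16 in R 4.3.3 (filterByExpr, TMM scaling, quasi-likelihood F test, Benjamini-Hochberg adjustment at 0.05, tested on simulated data). Standard errors are the size of the log2 fold change over the square root of F. A fold against 0 counts used a floor of 3 counts over the group. Intervals are exact binomial at 95%. Beakers were separate, so p-values measure the spread between pools. Gene lists were matched by name patterns, the most abundant transcript standing for each distinct protein name. Counts of genes in lists are counts of these names, so a gene under several names can count more than once. Genes were named by a rule, of whose picks the text gives a part: the largest and most certain called changes with no overlap and a mean of at least 1 CPM, up to 6 members per list by adjusted p, the most abundant calls, calls near 0 counts, and calls against 2.3 mg/L. The comparison, its genes and lists were chosen with earlier results of these data known. Alternatives were DESeq2 1.42.0 size factors and its Wald test, no filter, a 2-fold minimum, only the 8 libraries compared, the letter as a replicate block, the mean of runs, the deepest run, summing by name and leaving out each library. Fits with a term for the sequencing lane, and without the 2 libraries of 1 run, were added after seeing the data. Sequences and genome positions were not used here.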

Additional observations from a re-analysis of the deposited data

Results flagged for a closer look

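Values were looked at again where the gap from 1 library to the nearest of the other 3, divided by the range of its group of 4, exceeded Dixon's 95% critical value. For normally distributed values chance gives this in about 1 of 20 groups. Of 328 groups checked, 17 passed, and 3 of them were set by control A, the library with the lowest total. Groups with counts in a single library always pass, and most genes were picked on these same values. The share that passed therefore cannot be set against chance.

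At 3.4 mg/L, library D was low for CYP2J2 (152.2 CPM, others 172.3 to 175.0) and for VDAC1 (274.3 CPM, others 288.7 to 291.6). FGF19 was counted only in library A (0.282 CPM), adenylate kinase 2 only in library B (0.201 CPM) and BCL-6 corepressor-like protein 1 only in library D (0.108 CPM).

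Among the controls, A was low for glutathione S-transferase alpha 1 (127 CPM, others 178 to 185) and high for myelin proteolipid protein B (345 CPM, others 212 to 228) and for avidin-like (11.03 CPM, others 2.28 to 3.32). Control B was low for C1q subunit C (87.5 CPM, others 94.4 to 94.7) and high for myosin-4-like (713 CPM, others 517 to 539) and for the second catalase-like transcript (11.9 CPM, others 0 to 0.434). It alone had adult alpha globin (0.185 CPM). Control C was low for lysyl oxidase (27.4 CPM, others 42.4 to 44.8) and high for dffa (39.7 CPM, others 32.2 to 32.8), and it alone had fos-related antigen 1-like (1.30 CPM). Control D was high for argininosuccinate synthase (663.6 CPM, others 510.1 to 529.9), and it alone had the second apoptosis-inducing factor 2 transcript (1.01 CPM).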

How the results depend on the processing

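Against the control, the 1516 calls at 3.4 mg/L stayed within 1.5 times under every alternative except a 2-fold minimum, which left 448. Leaving out 1 library gave 1107 to 1421. Falls outnumbered rises in 14 of 19 alternatives, as with DESeq2 size factors (712 rises, 788 falls), and rises outnumbered falls in 5. Against 2.3 mg/L the 9 calls became 474 by the DESeq2 Wald test and 0 with no filter on low counts, with only the 8 libraries compared, with the lane as a term and without the 2 single-run libraries. Leaving out 1 library gave 0 to 154. The cause was not tested. The replicate block gave 1316 calls against the control and 0 against 2.3 mg/L. The letters were not treated as pairs in the main fit. The correlation of deviations between 3.4 mg/L and control libraries of the same letter was 0.00032 to 0.0407, and 2 of 4 correlated best with their own letter. Whether the letters pair the libraries was not tested. Of 153 called transcripts among 160 followed here, 114 kept their call under every alternative other than the 2-fold minimum that tested them. Summed by protein name, the log2 fold change of the scarce catalase-like transcript turned to 0.67. The low depth of control A limits what can be seen of transcripts under about 1 CPM.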

Other observations

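Transcripts without a usable protein name made up a large part of the calls. Of the 1516, 664 were in unnamed transcripts (13.3% of those tested) and 852 in named ones (11.2% of those tested), and the difference between these shares was not tested.

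Several further transcripts of defence and of epithelia also fell with no overlap between the groups. Macrophage receptor MARCO-like, a scavenger receptor of macrophages, had 0.469, 0, 0 and 0.216 CPM at 3.4 mg/L, against 2.90, 3.23, 2.28 and 1.12 CPM in the controls and fell by 3.72 ± 1.05 (adjusted p = 0.031), a call lost without exposed library B, C or D or control A, B or C. Prostasin-like, a membrane protease of epithelia, had 0.282, 0.268, 0.476 and 0.431 CPM at 3.4 mg/L, against 2.90, 2.40, 2.71 and 2.47 CPM in the controls and fell by 2.80 ± 0.43 (adjusted p = 5.5e-04). Avidin-like, named after a biotin-binding egg protein, had 0.563, 1.14, 0.666 and 0.431 CPM at 3.4 mg/L, against 11.03, 3.32, 2.28 and 2.36 CPM in the controls and fell by 2.70 ± 0.66 (adjusted p = 0.014), a call lost without control A. A second uromodulin transcript had 26.9, 7.78, 0.286 and 24.1 CPM at 3.4 mg/L, against 141, 77.03, 149 and 107 CPM in the controls and fell by 3.00 ± 0.73 (adjusted p = 0.014), a call lost without exposed library B.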
